A study of Mus musculus with 11 samples.

Results

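The 32 genes described here are targets of p53, the transcription factor encoded by Trp53, together with Trp53 itself and the proteins that hold p53 in check. They were chosen as a list of gene symbols that are well known in the p53 pathway, matched to Ensembl identifiers. All 32 were found among the 57180 identifiers of the count table, and all 32 were among the 19948 genes with enough counts to be tested. The series measured RNA by bulk RNA-seq in alveolar macrophages, the resident phagocytes of the air spaces, which were flow sorted from lungs of wild-type C57BL/6 mouse pups at postnatal day 7. One set of pups had stayed in normoxia and the other had been kept in hyperoxia, at 95% oxygen, between postnatal days 1 and 5, so the RNA was taken after the exposure had ended. Libraries are written by oxygen (N or H), sex (M or F) and replicate number. There were 3 normoxia male libraries (NM1 to NM3), 3 normoxia female (NF1 to NF3), 2 hyperoxia male (HM2 and HM3) and 3 hyperoxia female (HF1 to HF3). The labels do not say whether a library is 1 animal or a pool, so the p-values measure only how these libraries spread, and that may be technical.

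In unstressed cells p53 is made and destroyed continuously, because Mdm2 tags it for the proteasome and Mdm4 masks its activating domain. DNA breaks and oxidative damage switch on kinases that free p53 from these inhibitors, and it then switches on genes that stop the cell cycle, repair DNA, adjust metabolism or kill the cell. The control acts mainly on the protein, so the level of Trp53 RNA says little about p53 activity, and the RNA of its targets is the usual readout. High oxygen is a known trigger of this pathway in the lung, where p21, the product of Cdkn1a, has been studied mostly in epithelial cells.

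Of the 32 genes, 1 passed the test between hyperoxia and normoxia. This was Trp53i11, whose RNA was 2.10-fold higher after hyperoxia, averaged over the sexes. Over all genes 141 of 19948 passed (0.707%), 108 of them higher (0.541%) and 33 lower (0.165%). The test was edgeR's quasi-likelihood F-test with Benjamini-Hochberg adjustment over all genes tested, and a gene counted as changed under an adjusted p of 0.05. At an unadjusted p under 0.05 there were 6 of the 32 genes, against 1621 of all genes (8.13%), 956 of them higher. The 6 were all higher after hyperoxia: Trp53i11, Phlda3, Pmaip1, Gtse1, Pidd1 and Cdkn1a. The fold change lay above 0 on the log2 scale in 22 of the 32 genes, against 9150 of all genes (45.9%). The median log2 fold change of the 32 was 0.10, against -0.03 over all genes tested. For 26 of the 32 the 95% interval of the log2 fold change lay between -1 and 1, so that a change of 2-fold or more was outside the interval.

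Levels below are CPM, the reads of a gene relative to the scaled library size. Total counts ran from 18087948 in NM3 to 32579468 in NF1, and a count of 3, used as the floor, corresponded to 0.0880 to 0.160 CPM, which covers counting error only. In 4 libraries (NM3, NF3, HF2 and HF3) between 33158 and 35530 identifiers had a count, against 26856 to 30173 in the other 7. The summed level of the 32 genes was lowest in NM3 (734 CPM) and NF3 (763 CPM) and ran from 846 to 1019 CPM elsewhere. NM3 was the lowest library of its group for 18 of the 32 genes, against 40.5% of all genes, and NF3 for 23 of the 32, against 41.0%. Results are therefore also given without those 4 libraries where they rest on them. Without the 4, HF1 was the only hyperoxia female library left, so a call lost in that fit does not show dependence on those libraries. The median of the 32 genes was then 0.17, and 22 again lay above 0.

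**Figure D1:**
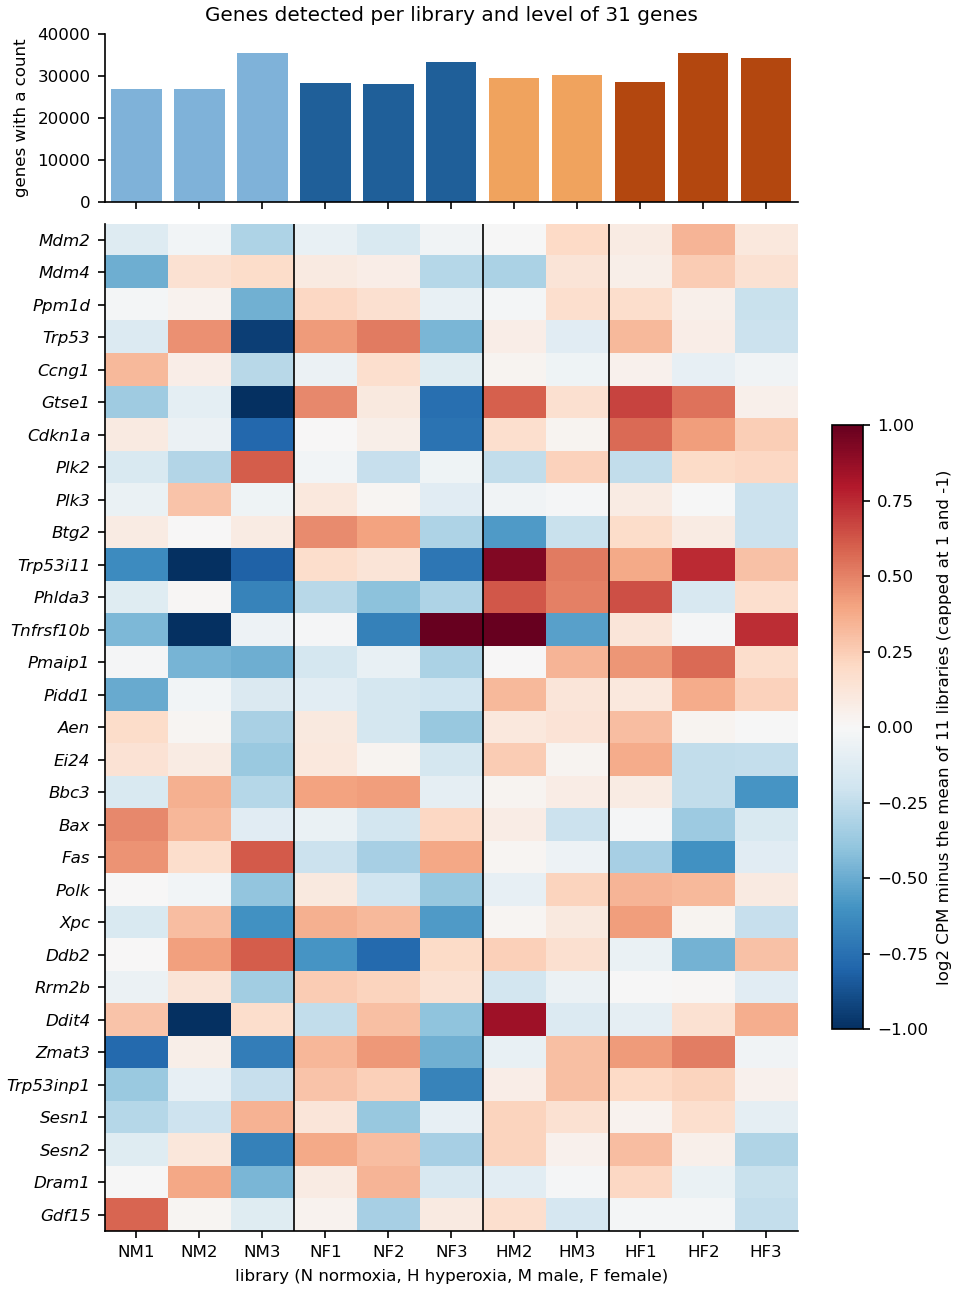
Heat map of 31 of the 32 genes (rows, by role) in 11 libraries (columns). Colour is the log2 CPM of a library minus the gene's mean over the 11 libraries, capped at 1 and -1, and the bars on top give the number of identifiers with a count. Eda2r, with 0 to 23 counts, is left out. Trp53i11, Phlda3 and Pidd1 are mostly blue in normoxia and red in hyperoxia, while Trp53, Cdkn1a, Gtse1 and Xpc are bluest in NM3 and NF3.

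The genes differed widely in how strongly these cells expressed them. Compared per kilobase of exon, the highest was Ccng1, encoding cyclin G1, with a mean of 38.1 CPM per kb, above 94.7% of the genes tested. Bax followed at 32.1, Btg2 at 29.8 and Dram1 at 27.0 CPM per kb. Trp53 itself stood at 9.63 CPM per kb, Mdm2 at 10.8 and Cdkn1a at 13.7. At the other end were Ddit4 at 0.603, the death receptor Tnfrsf10b at 0.234 and Eda2r, the receptor of ectodysplasin A2, at 0.0550 CPM per kb. The coefficient of variation over the 11 libraries had a median of 21.1% for the 32 genes and 31.4% for all genes tested. It ran from 9.11% for Plk3 to 55.2% for Tnfrsf10b and 113% for Eda2r, and for Trp53i11 it was 43.7%.

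Among p53 and the genes that control it, 0 of 5 passed the test, with a median log2 fold change of 0.06. Trp53 stood at 34.0, 51.4 and 19.5 CPM in NM1 to NM3, at 50.3, 53.8 and 27.2 in NF1 to NF3, at 39.1 and 34.6 in HM2 and HM3, and at 46.9, 39.3 and 32.2 in HF1 to HF3. The hyperoxia libraries lay wholly within the range of the normoxia libraries, whose lowest values were NM3 and NF3. The log2 fold change was -0.04 ± 0.23 (SE), with a 95% interval from -0.53 to 0.45, and it ran from -0.18 to 0.16 when each library was left out in turn. Mdm2, the ubiquitin ligase that is at the same time a p53 target, stood at 49.7, 53.5 and 44.0 CPM in NM, 51.7, 49.1 and 53.2 in NF, 54.3 and 62.7 in HM, and 57.6, 68.9 and 58.6 in HF. All 5 hyperoxia libraries were above all 6 normoxia libraries, by a narrow margin between NM2 and HM2. The log2 fold change of Mdm2 was 0.26 ± 0.14, which did not pass (edgeR quasi-likelihood F-test, Benjamini-Hochberg adjusted p = 0.745), and its 95% interval ran from -0.05 to 0.56. Mdm4 stood at 32.8, 51.0 and 52.2 CPM in NM, 48.9, 48.0 and 37.6 in NF, 36.9 and 50.2 in HM, and 47.9, 54.9 and 51.2 in HF, with full overlap of the groups and a log2 fold change of 0.07 ± 0.17. Ppm1d, a phosphatase that switches off damage signalling, had 0.06 ± 0.15. Ccng1 had -0.04 ± 0.17, its levels spanning 110 to 167 CPM in normoxia and 126 to 137 CPM in hyperoxia.

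Of the 5 cell cycle genes 0 passed, with a median log2 fold change of 0.03. Cdkn1a (ENSMUSG00000023067) encodes p21, which blocks cyclin-dependent kinases and is the classic p53 target. It stood at 50.0, 45.1 and 27.2 CPM in NM1 to NM3, at 47.1, 49.0 and 28.1 in NF1 to NF3, at 52.8 and 47.9 in HM2 and HM3, and at 69.6, 62.8 and 55.7 in HF1 to HF3. The HF libraries were above all others, the HM libraries were level with the upper normoxia libraries, and NM3 and NF3 were the lowest. The log2 fold change was 0.45 ± 0.19 (95% interval 0.05 to 0.86), not past the test (edgeR quasi-likelihood F-test, Benjamini-Hochberg adjusted p = 0.502), and 0.31 without the 4 libraries. Gtse1, which is expressed from S phase to mitosis and carries p53 out of the nucleus, stood at 7.47, 8.92 and 3.56 CPM in NM, 13.4, 10.2 and 5.65 in NF, 14.5 and 10.7 in HM, and 15.3, 13.9 and 9.92 in HF. NF1 and NF2 reached the hyperoxia range, so the groups overlapped. Its log2 fold change was 0.67 ± 0.24 (95% interval 0.15 to 1.18; edgeR quasi-likelihood F-test, Benjamini-Hochberg adjusted p = 0.344), and 0.50 without the 4 libraries. Among the alternative fits Gtse1 passed in that with a replicate block, a term for each replicate number, whose values are given below. Btg2, an inhibitor of proliferation, stood at 84.9, 80.5 and 85.0 CPM in NM, 111, 106 and 64.6 in NF, 54.0 and 68.5 in HM, and 90.9, 85.0 and 68.9 in HF. Both HM libraries lay below the 3 NM libraries, while NF and HF overlapped, and the log2 fold change was -0.32 ± 0.18 (95% interval -0.70 to 0.05). The stress kinases Plk2 (0.03 ± 0.18) and Plk3 (-0.07 ± 0.15) had intervals from -0.35 to 0.42 and from -0.37 to 0.24.

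The group of 11 genes for cell death and survival held the gene that passed, and its median log2 fold change was 0.42. Of the 11, 8 lay above 0, against 45.9% of all genes. Trp53i11 (ENSMUSG00000068735), named as a p53-induced gene and also known as PIG11, stood at 3.47, 2.62 and 3.04 CPM in NM1 to NM3, at 6.11, 5.91 and 3.23 in NF1 to NF3, at 10.3 and 7.78 in HM2 and HM3, and at 7.03, 9.09 and 6.63 in HF1 to HF3. Every hyperoxia library was above every normoxia library, as for 351 of all genes tested (1.76%), and 4 of the 32 genes had this pattern (Trp53i11, Pmaip1, Pidd1 and Mdm2), while 0 had the opposite one (0.396% of all genes). Group means were 3.05 ± 0.422 CPM (SD, n = 3) in NM, 5.08 ± 1.60 (n = 3) in NF, 9.05 ± 1.80 (n = 2) in HM and 7.58 ± 1.32 (n = 3) in HF. The values rest on 59 to 310 reads per library. The log2 fold change was 1.07 ± 0.20 (95% interval 0.64 to 1.51; edgeR quasi-likelihood F-test, Benjamini-Hochberg adjusted p = 0.0203), rank 69 by p of all genes tested. The call was lost without HF2 (0.998, adjusted p = 0.0793 by edgeR with Benjamini-Hochberg adjustment). It was also lost without HM2 (0.97), HM3 (1.18) or the 4 libraries (0.90), but each of these fits leaves a group without a replicate.

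Phlda3 (ENSMUSG00000041801), which competes with the kinase Akt for membrane lipids and so damps survival signalling, stood at 16.7, 18.3 and 11.4 CPM in NM, 14.9, 13.6 and 14.7 in NF, 27.9 and 25.7 in HM, and 28.4, 16.2 and 20.4 in HF. Hyperoxia was above normoxia within each sex, but HF2 lay below NM1 and NM2. Its log2 fold change was 0.69 ± 0.17 (95% interval 0.33 to 1.05), just outside the threshold (Benjamini-Hochberg adjusted p = 0.0841 by edgeR's quasi-likelihood test). Without the 4 libraries it was 0.81. Phlda3 passed with DESeq2 (adjusted p = 0.0143), with upper quartile scaling (edgeR, adjusted p = 0.0397), without the filter on low counts (edgeR, adjusted p = 0.0323) and without NM2 (edgeR, adjusted p = 0.0424). It also passed with the replicate block, as given below. Pmaip1 encodes Noxa, a BH3-only protein that neutralizes the survival factor Mcl-1. It stood at 11.5, 8.37 and 8.26 CPM in NM, 10.3, 11.03 and 9.31 in NF, 11.7 and 14.7 in HM, and 15.8, 17.3 and 13.1 in HF. No hyperoxia library fell into the normoxia range, although NM1 and HM2 nearly met. The log2 fold change of Pmaip1 was 0.54 ± 0.15 (95% interval 0.22 to 0.87; edgeR quasi-likelihood F-test, Benjamini-Hochberg adjusted p = 0.147), and 0.49 without the 4 libraries. Pidd1, the scaffold on which caspase-2 is activated, stood at 4.48, 6.29 and 5.78 CPM in NM, 5.95, 5.66 and 5.56 in NF, 8.04 and 6.96 in HM, and 6.90, 8.30 and 7.52 in HF. Its groups did not overlap, and the log2 fold change was 0.42 ± 0.17 (95% interval 0.07 to 0.77; edgeR quasi-likelihood F-test, Benjamini-Hochberg adjusted p = 0.419). Non-overlap within each sex was found for 5 of the 32 genes (the 4 above and Phlda3), all higher after hyperoxia, against 2.44% of all genes tested, and the opposite pattern for 0, against 1.01%.

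The other death genes gave no call in either direction. Bax, which perforates the outer mitochondrial membrane, spanned 43.9 to 69.4 CPM in normoxia and 38.7 to 52.5 CPM in hyperoxia, with a log2 fold change of -0.24 ± 0.16. Bbc3, encoding the BH3-only protein Puma, had -0.23 ± 0.20. Fas, a death receptor, stood at 10.2, 8.42 and 11.5 CPM in NM, 6.39, 5.91 and 9.79 in NF, 7.57 and 7.18 in HM, and 5.90, 4.87 and 6.87 in HF. Both HM libraries were below the NM libraries, while HF3 lay above NF1 and NF2, and the log2 fold change of Fas was -0.38 ± 0.18 (95% interval -0.77 to 0.00). The nuclease gene Aen had 0.20 ± 0.15 and Ei24, which encodes a protein of the endoplasmic reticulum, 0.09 ± 0.17. Tnfrsf10b, the receptor of the death ligand TRAIL, had 10 to 64 reads per library and a log2 fold change of 0.56 ± 0.44 with an interval from -0.37 to 1.49. Eda2r had 1, 0 and 22 reads in NM, 2, 3 and 1 in NF, 2 and 15 in HM, and 8, 23 and 17 in HF. At this depth its interval, from -0.73 to 3.19, left its direction undetermined.

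**Figure D2:**
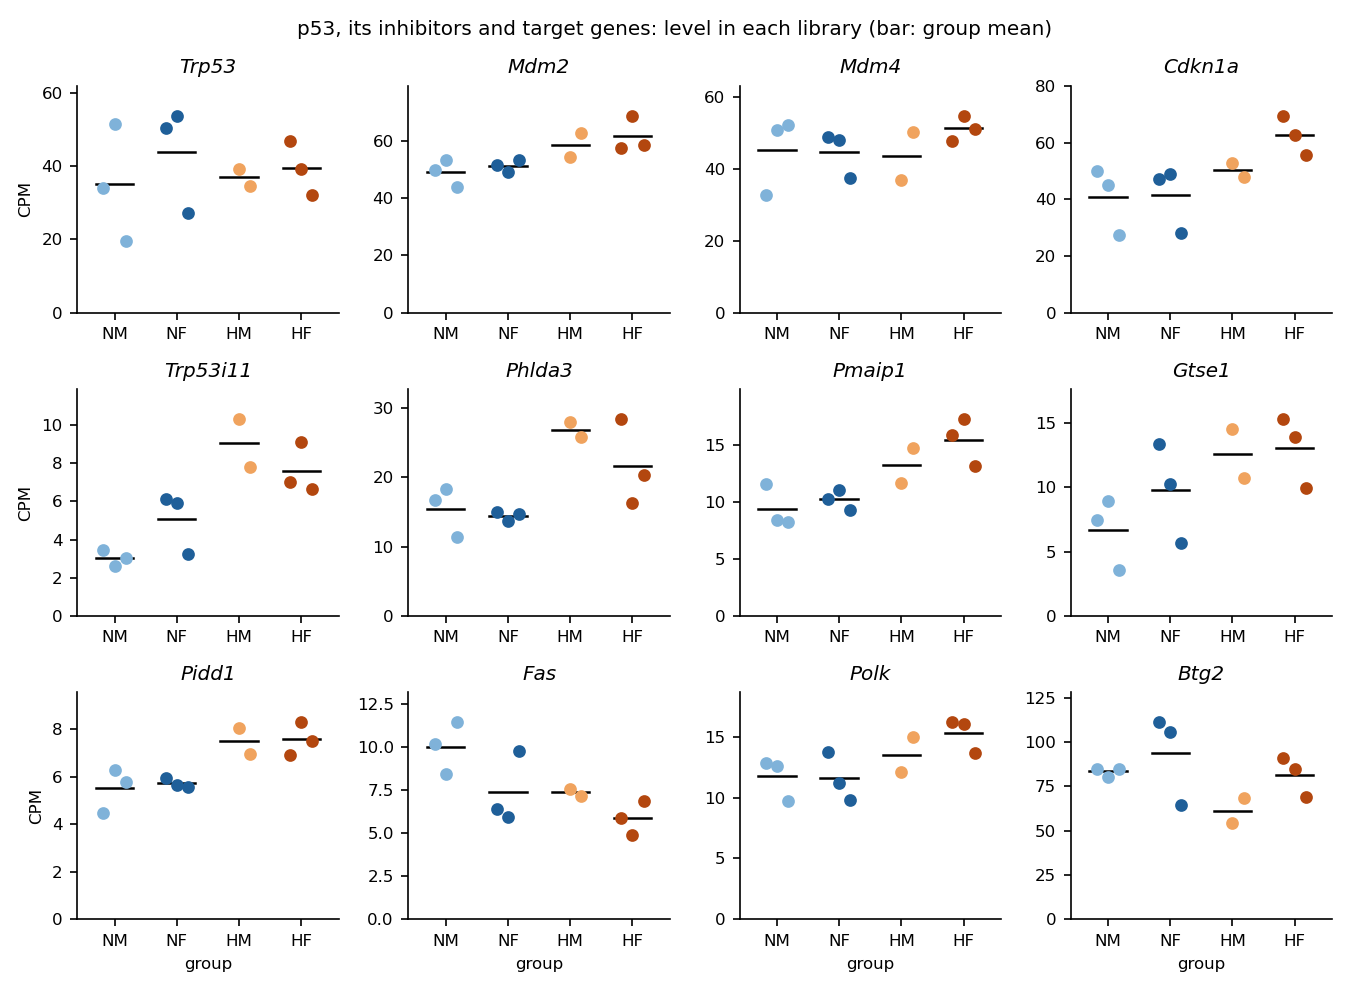
Level in CPM (vertical axis, from 0) of 12 genes in each library, by group (NM and NF normoxia, HM and HF hyperoxia; M male, F female), with 1 point per library and a bar at the group mean. In the panel of Trp53i11 the hyperoxia points lie between 6.63 and 10.3 CPM and the normoxia points between 2.62 and 6.11 CPM, while in the panel of Trp53 the groups overlap.

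Among the 4 genes for DNA repair and nucleotide supply 0 passed, with a median log2 fold change of 0.07. Polk, a polymerase that copies past damaged bases, stood at 12.9, 12.6 and 9.75 CPM in NM, 13.7, 11.2 and 9.83 in NF, 12.1 and 15.0 in HM, and 16.2, 16.0 and 13.7 in HF. The groups overlapped through HM2 and, narrowly, HF3, and the log2 fold change was 0.30 ± 0.15 (95% interval -0.02 to 0.62). Xpc and Ddb2, which recognise lesions for nucleotide excision repair, had 0.08 ± 0.21 and 0.06 ± 0.22. Rrm2b, the p53-dependent small subunit of ribonucleotide reductase, had -0.14 ± 0.14. In the GENCODE M21 annotation 23.8% of the exon bases of Ddb2 are shared with Acp2 on the other strand, and 12.2% of those of Bax with Gm45808 on the same strand. Smaller overlaps on the other strand concern Rrm2b (8.04%), Cdkn1a (7.68%), Ei24 (6.66%) and Plk3 (3.32%). Whether the counting used strand is not given in the sources used here, so reads in bases shared across strands may not be told apart. For the bases that Bax shares with Gm45808, strand could not tell the reads apart.

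Of the 7 genes for stress response, metabolism and autophagy 0 passed, with a median log2 fold change of 0.18. Of the 7, 5 lay above 0, against 45.9% of all genes. Sesn1 (0.18 ± 0.17) and Sesn2 (0.11 ± 0.18) encode sestrins, and Ddit4 (0.42 ± 0.41) encodes Redd1, and all of them restrain the growth kinase mTORC1. Ddit4 had 9 to 47 reads per library, and its interval ran from -0.44 to 1.29. Trp53inp1 (0.28 ± 0.17) and Dram1 (-0.10 ± 0.18) promote autophagy. Zmat3, an RNA-binding protein that steers splicing, had 0.36 ± 0.20 (95% interval -0.07 to 0.79). Gdf15, a secreted stress cytokine often used as a blood marker of p53 activity and of mitochondrial stress, spanned 7.58 to 14.4 CPM in normoxia and 8.10 to 10.8 CPM in hyperoxia, with a log2 fold change of -0.11 ± 0.17.

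**Figure D3:**
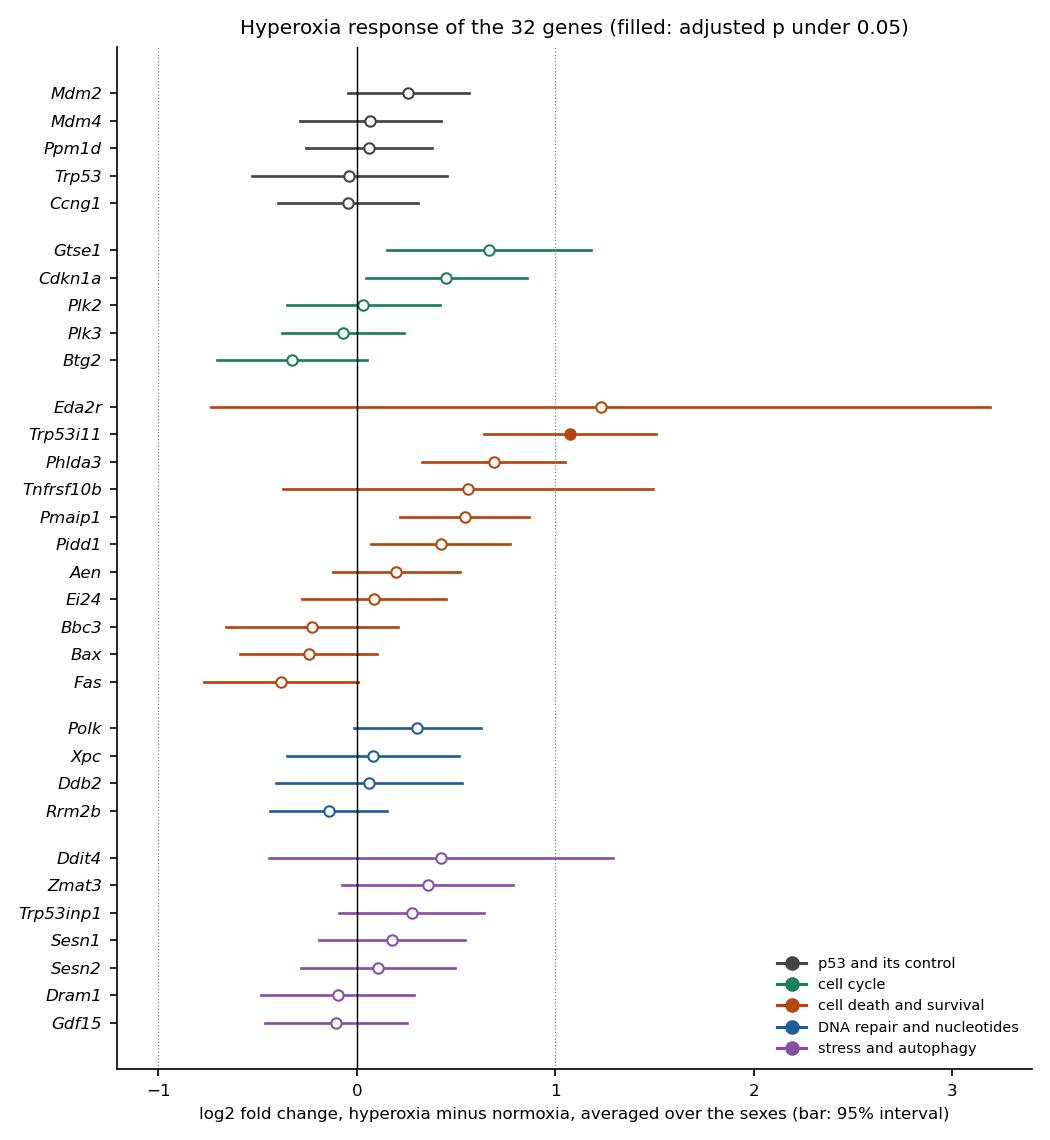
Log2 fold change of each of the 32 genes, hyperoxia minus normoxia averaged over the sexes (horizontal axis), with its 95% interval as a line, ordered by role. Trp53i11 at 1.07 is the gene that passed the test, and the widest intervals are those of Eda2r, Tnfrsf10b and Ddit4.

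The sexes were compared because the series asks about sex as a biological variable. In males 0 of the 32 genes passed (8 of all genes, 0.0401%) and 4 had an unadjusted p under 0.05, against 5.5% of all genes. These were Trp53i11 (1.57 ± 0.31; edgeR quasi-likelihood F-test, Benjamini-Hochberg adjusted p = 0.0986), Gtse1 (0.92 ± 0.36), Phlda3 (0.79 ± 0.25) and Pmaip1 (0.49 ± 0.23). Without NF3, a library that is in neither male group, Trp53i11 passed in males, 19468 genes were then tested, and 18 of them passed. In females 0 of the 32 passed (8 of all genes, 0.0401%) and 3 had an unadjusted p under 0.05, against 4.53% of all genes: Cdkn1a (0.60 ± 0.26), Pmaip1 (0.59 ± 0.21) and Phlda3 (0.59 ± 0.23). The median log2 fold change of the 32 was 0.17 in males and 0.14 in females, and 20 of 32 lay above 0 in each sex. Over all genes tested the median was -0.05 in males and -0.0046 in females, with 45.6% and 49.4% above 0. The sign was the same in both sexes for 24 of the 32 genes, against 55.2% of all genes tested.

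The difference between the responses, female minus male, passed for 0 of the 32 genes and for 0 of all 19948 (0%), by edgeR's quasi-likelihood test. At an unadjusted p under 0.05 there were 334 of all genes (1.67%) and 1 of the 32, Trp53i11, with -0.998 ± 0.41 (95% interval -1.86 to -0.13; Benjamini-Hochberg adjusted p = 1). Its level was 2.97-fold higher after hyperoxia in males and 1.49-fold higher in females. In normoxia Trp53i11 was 0.74 ± 0.28 higher in females on the log2 scale, with NF1 and NF2 above the 3 NM libraries and NF3 within their range. That contrast passed for 0 of the 32 genes (5 of all genes, 0.0251%) and had an unadjusted p under 0.05 for 2, Trp53i11 and Ddb2 (3.63% of all genes), the adjusted p of Trp53i11 by the same edgeR test being 0.851. For Cdkn1a the difference of the responses was 0.29 ± 0.39, with an interval from -0.52 to 1.11. After hyperoxia 0 of the 32 genes differed between the sexes past the test (5 of all genes, 0.0251%), and 0 had an unadjusted p under 0.05, against 1.73% of all genes. For 18 of the 32 genes the interval of the interaction lay between -1 and 1, so for the others a 2-fold difference in response was not outside it.

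**Figure D4:**
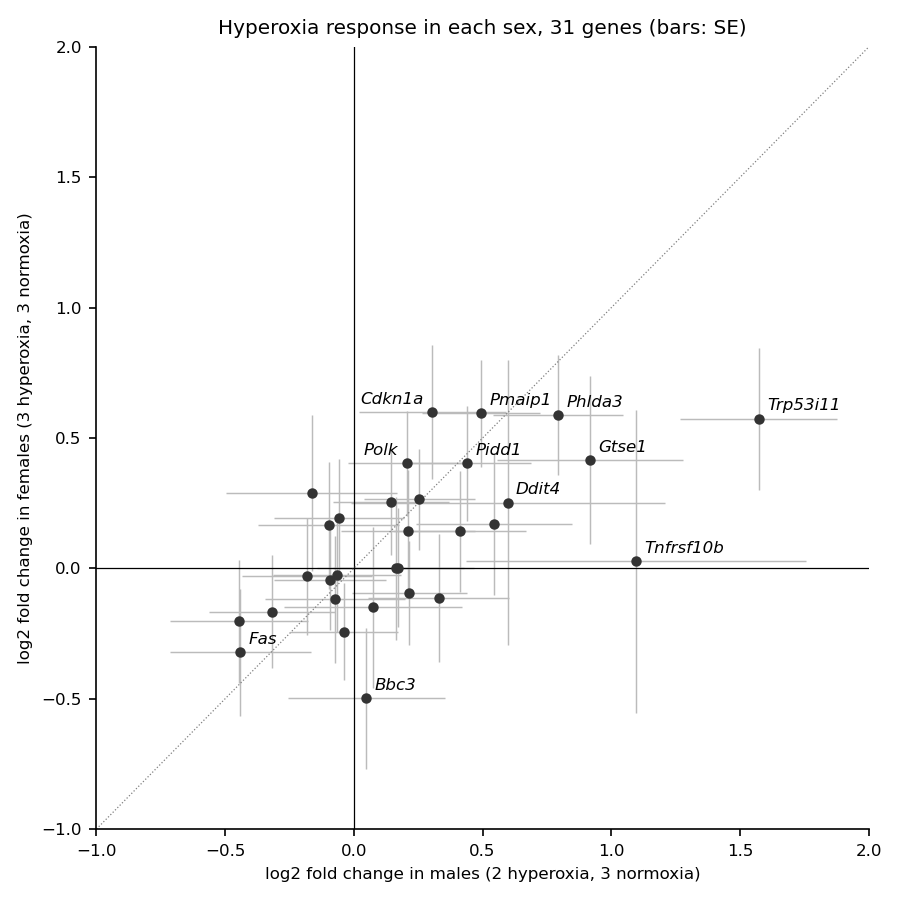
Log2 fold change of hyperoxia against normoxia in males (horizontal axis) and in females (vertical axis) for 31 of the 32 genes, without Eda2r, with bars of 1 SE. The dotted line marks equal responses. Trp53i11 lies farthest to the right, at 1.57 in males and 0.57 in females.

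Upstream sequences were searched for the p53 response element, since most of the 32 genes lay on 1 side of 0. RefSeq promoters (build GRCm38.p6, another build than that of the counts) were found for 25 of the 32 genes, giving 34 start sites. The search covered the p53 consensus, a pair of 10-base half-sites next to each other, on both strands with at most 1 mismatch in 20 bases. It was found in 25 of 32851 promoters (0.0761%). Among the 32 genes it was in Cdkn1a, 51 bases before its more upstream start site, and in Ccng1, 195 bases before the start. The core pattern CATGNNNNNNCATG, which reads the same on both strands and overlaps the consensus, was found in 161 of 32851 promoters (0.490%). Among the 32 genes it was in Cdkn1a alone, 48 bases before the same start site. The 250 bases before the start site are shown 5′ to 3′ for the genes with a match and for Trp53i11, the gene that passed, with the consensus match in capitals. The Cdkn1a window shown is at chr17:29090729-29090978 (plus strand), Ccng1 at chr11:40755287-40755536 (minus strand) and Trp53i11 at chr2:93187298-93187547 (plus strand). Another start site of Cdkn1a was also searched. The bases before it, at chr17:29093519-29093768 (plus strand), held no match to either pattern and are not shown.
Cdkn1a: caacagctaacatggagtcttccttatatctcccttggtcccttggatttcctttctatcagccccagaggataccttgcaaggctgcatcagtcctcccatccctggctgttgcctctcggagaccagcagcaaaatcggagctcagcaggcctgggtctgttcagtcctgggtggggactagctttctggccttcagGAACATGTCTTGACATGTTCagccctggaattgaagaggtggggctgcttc
Ccng1: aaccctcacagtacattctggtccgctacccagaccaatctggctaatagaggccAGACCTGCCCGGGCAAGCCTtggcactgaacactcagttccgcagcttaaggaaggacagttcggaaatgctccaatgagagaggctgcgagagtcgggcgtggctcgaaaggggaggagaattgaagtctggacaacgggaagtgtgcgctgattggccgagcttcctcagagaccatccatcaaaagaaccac
Trp53i11: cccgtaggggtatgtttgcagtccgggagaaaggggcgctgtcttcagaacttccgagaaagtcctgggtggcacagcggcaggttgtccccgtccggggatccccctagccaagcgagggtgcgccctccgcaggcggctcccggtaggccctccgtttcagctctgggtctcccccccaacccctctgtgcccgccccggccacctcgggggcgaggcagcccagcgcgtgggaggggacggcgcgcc
The genes with a match had log2 fold changes of 0.45 (Cdkn1a) and -0.04 (Ccng1), and Trp53i11, at 1.07, had no match in this window. The absence of a match says only that these letters are not in these bases, since p53 sites often lie in introns or farther away.

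Other genes of the pathway were read from separate lists. Of 25 further p53 targets 0 passed, 19 lay above 0, against 45.9% of all genes, and the median log2 fold change was 0.21. The smallest p belonged to Lif, a cytokine gene (0.83 ± 0.21; edgeR quasi-likelihood F-test, Benjamini-Hochberg adjusted p = 0.0892), followed by Ckap2 (0.50 ± 0.15), a spindle protein, and Psrc1 (0.54 ± 0.17), which acts on microtubules. Without the 4 libraries 13 of the 24 then tested lay above 0, with a median of 0.09. Of 20 regulators of p53, such as damage kinases and cofactors, 0 passed and 11 lay above 0 (55%, against 45.9% of all genes). Their median was 0.08. The checkpoint kinases Chek1 (0.49 ± 0.19) and Chek2 (0.36 ± 0.16) and the inhibitor gene Ppp1r13l (-0.41 ± 0.19) had the smallest p among them, and Chek1 is also in the next list.

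Cell cycle genes that p53 and p21 are known to lower had the highest median of these lists. Of 18 such genes 4 rose, against 0.541% of all genes, and 0 fell, against 0.165%. All 18 lay above 0, against 45.9% of all genes, and the median log2 fold change was 0.72. The genes that rose were Cdc25c (1.02 ± 0.19), a phosphatase that opens mitosis, Rrm2 (0.83 ± 0.18), a subunit of ribonucleotide reductase, and the mitotic kinases Aurka (0.75 ± 0.15) and Bub1 (0.74 ± 0.16), and their Benjamini-Hochberg adjusted p by edgeR's quasi-likelihood test ran from 0.0145 to 0.0403. In 14 of the 18 genes all hyperoxia libraries were above all normoxia libraries, against 1.76% of all genes. The summed level ran from 753 to 1513 CPM in NM, 1189 to 1877 in NF, 1987 to 2214 in HM and 2003 to 2511 in HF. Without the 4 libraries 17 lay above 0 and the median was 0.52. The calls were lost there, and also without HM2 (median 0.66) or HM3 (0.72), but each of these fits leaves a group without a replicate. The count passing was 0 without NF1 or NF2, 4 without NF3, 1 without HF1, HF2 or HF3, 6 without NM2 or NM3, and 7 without NM1. Of all genes 0.322% (without HF2) to 0.983% (without NM2) passed in these latter fits. It was 13 with DESeq2, 9 without the filter on low counts, 7 with upper quartile scaling, and 6 with DESeq2's size factors in edgeR or with an additive model of oxygen and sex. Cdkn1a, the inhibitor of the cell cycle, and these 18 genes lay on the same side of 0.

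**Figure D5:**
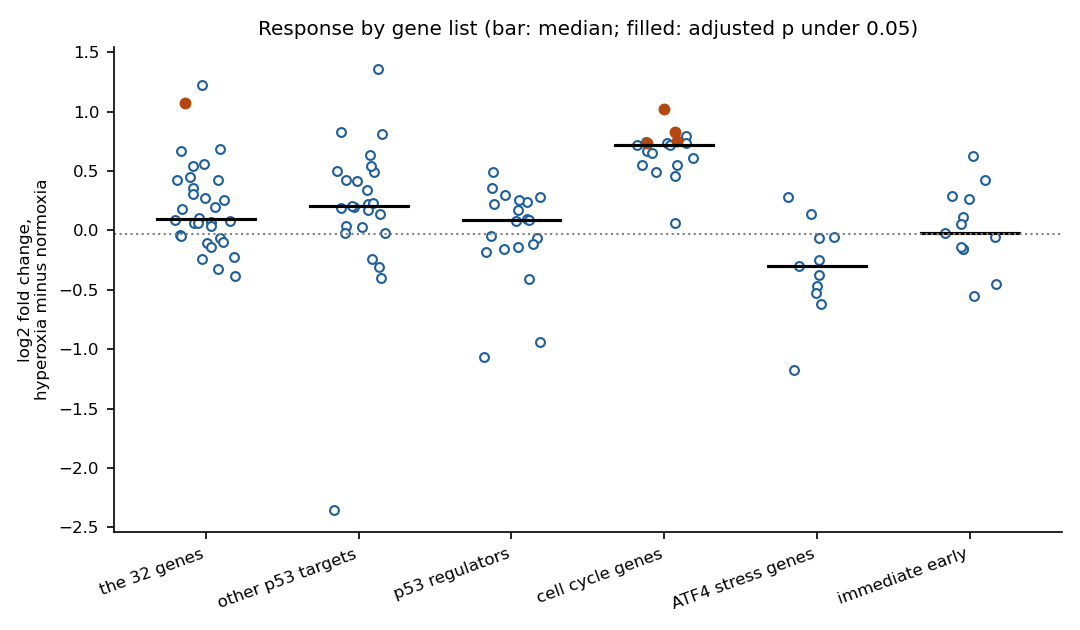
Log2 fold change, hyperoxia minus normoxia averaged over the sexes (vertical axis), of each tested gene in 6 lists, with a bar at the list's median and the median of all genes tested, -0.03, as a dotted line. Filled points passed the test. The cell cycle genes lie highest, with a median of 0.72, against 0.10 for the 32 genes.

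Markers of other cells were read in the same libraries, since a sorted population can hold several cell types. The sorted cells expressed the 15 alveolar macrophage markers, with 0 of them at 0, summing to 4597 to 7877 CPM in NM, 6524 to 7642 in NF, 5623 to 6245 in HM and 4860 to 7060 in HF. Of these 15, 6 fell after hyperoxia (Ear1, Fabp1, Fabp4, Krt79, Cidec and Ctsk), against 0.165% of all genes. The median log2 fold change was -0.69, and 2 lay above 0 (Marco, 0.18, and Mrc1, 0.0072), against 45.9% of all genes. The 8 monocyte markers had a median of 0.84 with 8 of 8 above 0, and 1 rose (Itgam, 1.59 ± 0.21), against 0.541% of all genes. Their sum ran from 589 to 1314 CPM in NM, 1112 to 2350 in NF, 1473 to 2340 in HM and 1173 to 2300 in HF. Of 8 interstitial macrophage markers 7 were tested, 0 passed and 7 lay above 0, with a median of 1.09 and sums of 19.0 to 36.5 CPM in NM, 24.7 to 30.1 in NF, 40.2 to 50.2 in HM and 27.7 to 99.99 in HF. The 10 epithelial markers summed to 190 to 365 CPM in normoxia and 388 to 472 CPM in hyperoxia, most of it Cdh1 (0.66 ± 0.23). Group means of Cdh1 were 188 CPM in NM, 240 in NF, 348 in HM and 323 in HF, so the sums mainly follow this gene. Which cells the Cdh1 RNA came from was not tested. Of the 10, 0 passed and 7 lay above 0, with a median log2 fold change of 0.37, and the smallest p belonged to Epcam (-0.79 ± 0.23) and Sftpb (0.95 ± 0.28), which lay on opposite sides of 0. Of 6 tested neutrophil markers 4 lay above 0, with a median of 0.30. Of these 1 rose (Mmp8, 1.08 ± 0.22), against 0.541% of all genes. Csf3r, at -1.02 ± 0.26, had the next smallest p and did not pass, and Ly6g, which defines neutrophils, had no count in any library. Endothelial (median -0.70), mesenchymal (-0.29), erythroid (-1.30) and lymphoid (0.33) markers gave 0 calls. The part of these marker differences in the values of Trp53i11 and the other p53 targets was not tested, and in bulk RNA fewer cells of a type and less RNA per cell cannot be told apart.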

How the data were processed

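RNA was measured in 11 libraries of sorted alveolar macrophages. The deposited table gives, per the file headers, raw whole-number counts of reads for each Ensembl gene in each library. Per the labels' protocols, libraries came from a low-input full-length cDNA kit, molecular identifiers and adapters were trimmed, and some libraries were cleared of short fragments and resequenced (it is unclear which). The submitters' processing notes name build mm39, STAR 2.7.9, Salmon 1.10.1, Trim Galore 0.6.7, DESeq2 1.42 and R 4.3.2. The sources used here give neither their roles nor a strand setting, nor whether identifiers served to collapse duplicates, so counts are taken as reads and not molecules.

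Symbols were matched for 51884 of 57180 identifiers (90.7%). With edgeR 4.0.16 (R 4.3.3), genes were filtered by group (minimum count 10, total 15), scaled by TMM and fitted with 1 mean per group by robust quasi-likelihood, and 6 contrasts were tested. Benjamini-Hochberg adjustment covered the 19948 genes tested. SE and 95% intervals come from the quasi-likelihood fit. CPM uses TMM-scaled library sizes, and CPM per kb uses merged exon lengths of GENCODE M21 (build GRCm38). The procedure was also run on counts simulated from its own fit, with library sizes and known fold changes as the only differences set between libraries. Such a run cannot show how the procedure performs where libraries differ in identifiers detected, as they do here. Libraries of a group differed by more than sampling noise (smallest chi-square per gene 16.7).

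Per-library values are given for Trp53, Mdm2, Mdm4, Cdkn1a, every member that passed and the 10 members of smallest p in the averaged contrast. Of other lists, genes that passed are named and, where fewer than 3 passed, up to the 3 of smallest p. For the marker lists, values are given for some of these genes. The members, lists and tests were chosen with earlier results of these data known. Alternatives were DESeq2 1.42.0, other scalings, no filter, an additive model and a replicate block. Each library was also left out in turn, as were the 4 libraries with most identifiers together. Leaving out HM2, HM3 or these 4 leaves a group without a replicate, which limits the counts passing in those fits. Hyperoxia male replicate 1 was not analysed here.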

Additional observations from a re-analysis of the deposited data

How the results depend on the processing

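Genes passing in the averaged hyperoxia contrast numbered 141 (108 higher), 448 (293 higher) with DESeq2, 230 (162 higher) with upper quartile scaling, 302 (201 higher) without the filter, 256 (209 higher) with the replicate block, and 36 to 195 with 1 library left out. Without the 4 libraries with most identifiers there were 23 (10 higher). In males (8) the counts were 89 with DESeq2, 5 with upper quartile scaling, 83 without the filter, 21 with the replicate block, 16 without the 4 libraries and 0 to 19 with 1 library left out. In females (8) they were 95, 96 without the filter, 23 with the block, 2 without the 4 libraries and 0 to 24. For the interaction (0) they were 3 with DESeq2, 6 without the filter, 1 without the 4 libraries and 0 to 1. Between the sexes in normoxia (5) they were 13 with DESeq2, 30 without the filter, 11 without the 4 libraries and 5 to 12, and in hyperoxia (5) 24 with DESeq2, 40 without the filter, 10 with the block and 5 to 8.

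Of the 32 genes, those passing in the averaged contrast (1) numbered 2 with DESeq2, with upper quartile scaling and without the filter (Trp53i11 and Phlda3), 3 with the replicate block (Gtse1 joining, 0.82, edgeR adjusted p = 0.0195, and Phlda3 0.73, adjusted p = 0.0292), 0 to 2 with 1 library left out and 0 without the 4 libraries. In males (0) it was 1, Trp53i11, with DESeq2, without the filter and with the block, and 0 to 1 with 1 library left out. Upper quartile scaling moved the median of all genes in males from -0.052 to -0.18. Over the alternatives Trp53i11 kept its sign and passed in 14 of 18. The sign held for 23 genes. With 1 library left out it changed for Trp53 (-0.18 to 0.16), Plk2 (-0.086 to 0.19), Mdm4 (-0.050 to 0.18), Ccng1 (-0.13 to 0.013), Ei24 (-0.030 to 0.15), Ddb2 (-0.055 to 0.24), Xpc (-0.039 to 0.21), Dram1 (-0.20 to 0.018) and Ppm1d (-0.022 to 0.12). Plk2 was also -0.0022 with DESeq2, -0.0020 with its size factors and -0.050 with upper quartile scaling, Ddb2 -0.018 with that scaling, and Trp53 0.084 with the block. The cause was not tested. The replicate numbers were not taken to pair the libraries, because 7 of 15 same-numbered pairs had a correlation over 0.1 (-0.17 to 0.57). All 3 pairs of NM with NF were among the 7, and 0 of the 6 pairs with an HM library were. Those 6 correlations ran from -0.16 to -0.0058. HM2 and HM3 deviate from their group mean by equal and opposite amounts, so the 6 pairs all rest on 1 difference, HM2 minus HM3. Same-numbered pairs thus differed between the groups, pairing is left undecided, and values with the block are given beside the others. With the block 10 of the 18 cell cycle genes passed, against 1.28% of all genes. In all, 5 of 11 libraries correlated best with their own number. Low counts limit Eda2r, Tnfrsf10b and Ddit4.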

Other observations

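Stress genes that depend on the transcription factor ATF4, which can raise Sesn2, Ddit4 and Gdf15 without p53, lay mostly lower after hyperoxia. Of 11 such genes 0 passed, 2 lay above 0, against 45.9% of all genes, and the median log2 fold change was -0.30. The smallest p belonged to Ddit3 (-0.62 ± 0.19; edgeR quasi-likelihood F-test, Benjamini-Hochberg adjusted p = 0.188), which encodes the stress factor Chop, Chac1 (-1.18 ± 0.46), which degrades glutathione, and Asns (-0.53 ± 0.21), the asparagine synthetase. The symbol Ddit3 matched 2 Ensembl identifiers, and only ENSMUSG00000025408 was read here. Without the 4 libraries with most identifiers 3 of 11 lay above 0 and the median was -0.20.

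Immediate early genes, which respond to tissue dissociation, had a median log2 fold change of -0.02, with 6 of 13 above 0 and 0 passing. Nr4a1, an early nuclear receptor gene, had the smallest p (0.62 ± 0.16; edgeR quasi-likelihood F-test, Benjamini-Hochberg adjusted p = 0.0841).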
